A study of Mus musculus with 16 samples.

Results

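The Serpina3 genes of the mouse form a tandem cluster of near-identical serine protease inhibitors (serpins) on chromosome 12. This account follows 8 of them, Serpina3c, f, g, h, i, k, m and n, of 23284 gene symbols counted by RNA sequencing. They were chosen by gene symbol, with no threshold on any value, but with the counts and fold changes of these libraries already known, so counts of members below describe the family and are no independent evidence about it. The table holds 11 Serpina3 symbols; Serpina3a and Serpina3j had 0 counts in every library and Serpina3b had single counts in 4 libraries, and these are not members. Of the 8, 6 (c, g, h, i, m and n) passed the filter on low counts and entered the test across 15426 genes, and Serpina3f and Serpina3k did not.

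The libraries are poly-A RNA of whole lumbar spinal cord from mice 150 days old, in 4 groups of 4 animals: Atg7 cWT (written cWT), Atg7 cKO (cKO), Atg7 cWT; SOD1G93A (cWT_SOD1) and Atg7 cKO; SOD1G93A (cKO_SOD1). Atg7 is an enzyme needed to build autophagosomes, cKO is read as its conditional knockout, and SOD1G93A is a mutant human SOD1 transgene that models amyotrophic lateral sclerosis. The title of the study places the inhibition of autophagy in motor neurons, which are a small share of this tissue; the sources used here give neither the driver of the deletion nor the strain background. The design gives 2 effects of the transgene (in cWT and in cKO), 2 effects of cKO (with and without transgene) and an interaction, which is the transgene effect in cKO minus that in cWT.

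Serpins trap their target protease with an exposed stretch, the reactive centre loop, which the protease cuts before it is locked in a covalent complex. Humans have a single gene, SERPINA3 (alpha-1-antichymotrypsin), where mice have this cluster, and the loop is the part in which its members differ most. Several members are acute-phase genes of the liver, induced through cytokine receptors and STAT3. In the central nervous system Serpina3n is a widely used marker of reactive astrocytes and its product inhibits granzyme B and leukocyte elastase, whereas Serpina3g (Spi2A) is known as an intracellular inhibitor of lysosomal cathepsins.

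The members differ in the loop-coding stretch more than elsewhere. To show what separates the products of a cluster whose reads are hard to tell apart, the coding bases of the loop are printed for the 5 members with a coding sequence that passed the filter, from GENCODE M21 transcripts (GRCm38), 5′ to 3′. Capitals mark bases that differ from Serpina3n or have no partner in it, after alignment of the whole coding sequences. The stretch runs from coding base 1099 to 1194 in Serpina3n.
Serpina3n: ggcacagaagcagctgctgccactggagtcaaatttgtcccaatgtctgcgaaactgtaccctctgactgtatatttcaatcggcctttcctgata
Serpina3m: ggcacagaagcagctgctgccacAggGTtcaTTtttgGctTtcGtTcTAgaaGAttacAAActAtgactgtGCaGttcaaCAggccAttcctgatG
Serpina3i: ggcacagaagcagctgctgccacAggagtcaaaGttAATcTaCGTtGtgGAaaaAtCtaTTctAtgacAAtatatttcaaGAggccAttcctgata
Serpina3c: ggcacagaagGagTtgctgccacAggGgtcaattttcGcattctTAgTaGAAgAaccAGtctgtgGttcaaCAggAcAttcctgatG
Serpina3g: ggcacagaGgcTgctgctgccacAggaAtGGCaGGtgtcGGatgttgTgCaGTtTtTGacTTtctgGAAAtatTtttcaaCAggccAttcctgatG

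Lower-case letters dominate the first 24 bases, which code for the hinge that inhibitory serpins share: Serpina3m and Serpina3i each had 1 mismatch to Serpina3n there, and Serpina3c and Serpina3g had 3. Over the aligned bases of the loop, identity to Serpina3n was 79.1% for Serpina3m, 77.1% for Serpina3i, 77.9% for Serpina3c and 71.3% for Serpina3g. Outside it the same genes were 86.4%, 86.2%, 87.7% and 88.9% identical to Serpina3n. Serpina3f and Serpina3k showed the same contrast, with 79.6% and 77.3% inside and 86.9% and 84.7% outside. The annotated coding sequence of Serpina3g is 744 bases long, beside 1254 in Serpina3n, and 643 of its bases were aligned to Serpina3n. Its value outside the loop therefore covers fewer bases than those of the other members. Serpina3h is a transcribed pseudogene in RefSeq and has no coding sequence, so its whole transcript was aligned to the coding sequences of the others and it is left out of the loop. Among pairs of members the closest were Serpina3k and Serpina3m (92.5%), Serpina3f and Serpina3i (92.0%), and Serpina3h and Serpina3i (91.8%).

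That likeness limits how far the members can be counted apart. Of all 50-base windows of its transcript, Serpina3n shared 6.90% exactly with another gene of the cluster and Serpina3c 4.25%. The shares were 10.7% for Serpina3f, 14.04% for Serpina3k, 15.4% for Serpina3i and 16.02% for Serpina3g. Serpina3m shared 19.1%, mostly with Serpina3k (15.96%), and Serpina3h shared 24.4%, mostly with Serpina3i (18.3%). With windows of 100 bases the shares fell to between 0% in Serpina3c and 6.09% in Serpina3m. Serpina3f and Serpina3g also overlap in the deposited annotation, which starts both at the same base (mm9, chromosome 12, 105452754 to 105459339 for Serpina3f and to 105480144 for Serpina3g). The RefSeq start sites of both genes (GRCm38.p6) are on the plus strand, so strand would not separate their reads. Whether strand was used in counting is not stated in the labels or notes.

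Serpina3n carried nearly all of the family's signal in this tissue. In FPKM, which scales reads for transcript length and library size and so allows levels to be compared between genes, its lowest library in each group stood at 49.4 (cWT), 53.0 (cKO), 683 (cWT_SOD1) and 119 (cKO_SOD1). The highest library of any other member stood at 2.34, 2.98, 26.5 and 2.72 in the same groups. In cWT the order below Serpina3n was Serpina3m (1.55 FPKM ± 0.55 SD, n = 4), Serpina3c (0.886 ± 0.209), Serpina3h (0.872 ± 1.03), Serpina3g (0.842 ± 0.387), Serpina3i (0.257 ± 0.242) and Serpina3f (0.101 ± 0.122), with Serpina3k listed at 0. Serpina3c, Serpina3h and Serpina3g lay within one another's spread. In cWT_SOD1 Serpina3h (12.4 ± 13.3) and Serpina3m (12.1 ± 6.68) came next after Serpina3n, and their libraries overlapped.

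Before the members are compared, the labels and the tissue were checked. Atg7 was lower in all 4 cKO libraries than in all 4 cWT libraries. The log2 fold change of -0.17 ± 0.12 (SE) did not pass the test (adjusted p = 0.9995). With the transgene Atg7 pointed the other way, at 0.17 ± 0.12 in cKO_SOD1 against cWT_SOD1 (adjusted p = 0.220), and the groups overlapped. Atg7 was also lower with the transgene in cWT (log2 -0.38 ± 0.12, adjusted p = 0.00839). It therefore gives no check of the cKO label in the transgenic animals, and this whole-tissue measure does not resolve motor neurons. The mouse gene Sod1 does not measure the human transgene. The summed CPM (counts per 1000000 counts, on TMM library sizes) of 8 motor neuron markers ranged from 476 to 616 in cWT, 420 to 483 in cKO, 137 to 187 in cWT_SOD1 and 167 to 218 in cKO_SOD1, and all 10 astrocyte and 8 microglia markers were detected in every group. Library totals ran from 14989026 to 20892530 counts.

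**Figure D1:**
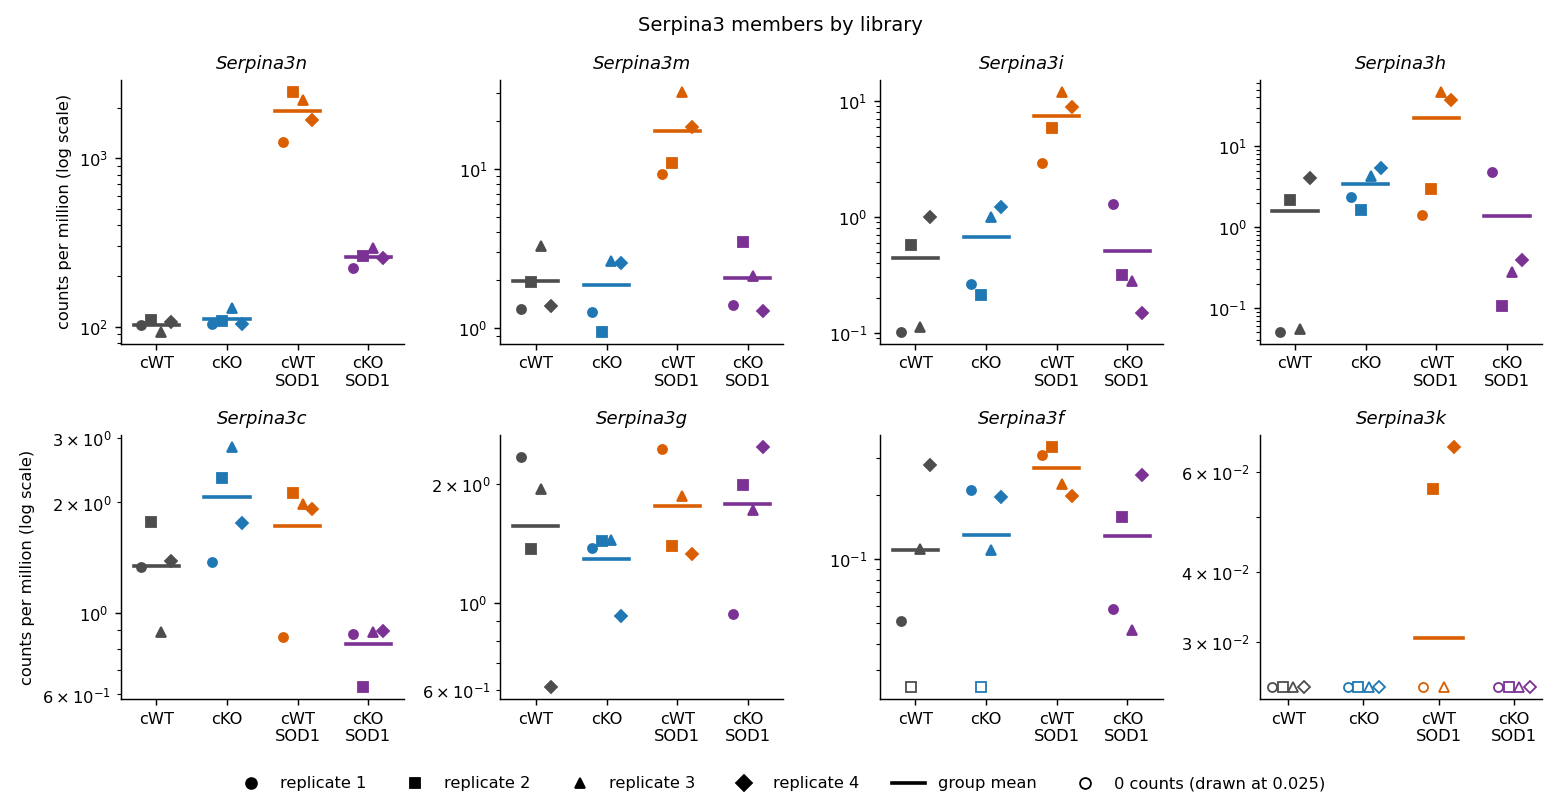
CPM (vertical, log scale) of the 8 members in each library, by group; bars are group means, shapes are replicate numbers and open symbols are 0 counts. Serpina3n, Serpina3m and Serpina3i in cWT_SOD1 lie above every library of the other groups, while Serpina3h spreads over 33.3-fold within cWT_SOD1.

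Serpina3n (mm9 chr12:105644918-105652539) rose with the SOD1 transgene in both genotypes, and about 8 times less in cKO. In CPM, replicates 1 to 4 read 103, 109, 93.4 and 106 in cWT, and 1240.2, 2482, 2230.0 and 1686 in cWT_SOD1. The cKO animals read 103, 108, 129 and 103, and the cKO_SOD1 animals 223, 261, 293 and 257. The groups with and without the transgene did not overlap in either genotype, and the cWT_SOD1 animals all stood above the cKO_SOD1 animals. The transgene effect in cWT was 18.6-fold (log2 4.22 ± 0.18 SE, adjusted p = 5.85e-12) and that in cKO 2.33-fold (log2 1.22 ± 0.16, adjusted p = 9.14e-05). With the transgene, Serpina3n was 7.39-fold lower in cKO (adjusted p = 1.48e-09), and without it the difference of 0.11 ± 0.16 on the log2 scale did not pass the test. The interaction of -2.995 ± 0.223 on the log2 scale, a ratio of 7.97 between the 2 transgene effects, passed the test (adjusted p = 1.74e-07). In a bulk sample, fewer cells of a type and less RNA per cell cannot be told apart. The summed CPM of 10 astrocyte markers moved with this gene, from 8907 to 9306 in cWT to 21168 to 26183 in cWT_SOD1 and 12752 to 13259 in cKO_SOD1. Gfap, one of these markers, alone averaged 1429 CPM in cWT, 12834 in cWT_SOD1 and 4472 in cKO_SOD1. Of the 10, 7 were higher with the transgene in cWT (median log2 0.61) and 2 in cKO (median 0.15), with 0 lower. The summed CPM of 8 microglia markers went from 335 to 366 in cWT to 1539 to 2256 in cWT_SOD1 and 616 to 670 in cKO_SOD1. All 8 were higher with the transgene in cWT (median log2 2.40) and 6 in cKO (median 0.78), with 0 lower. The summed CPM of 6 markers of meninges and fibroblasts went from 143 to 185 in cWT to 250.2 to 412 in cWT_SOD1 and 196 to 252 in cKO_SOD1. Of these, 4 were higher in cWT (median log2 0.99) and 0 in cKO (median 0.30), with 0 lower. Over all genes tested, 33.2% were higher with the transgene in cWT and 4.8% in cKO. The part of these cell types in the result was not tested.

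Serpina3m (mm9 chr12:105625374-105632467) rose with the transgene in cWT animals, and its effect in cKO animals did not pass the test. It read 1.33, 1.94, 3.28 and 1.38 CPM in cWT and 9.23, 10.8, 30.5 and 18.4 in cWT_SOD1. In cKO it read 1.27, 0.955, 2.66 and 2.58, and in cKO_SOD1 1.41, 3.46, 2.14 and 1.29. All 4 cWT_SOD1 animals stood above the other 12 libraries, and the 3 other groups overlapped. The rise in cWT was 8.70-fold (log2 3.12 ± 0.41, adjusted p = 3.46e-06). The effect in cKO was 0.15 ± 0.48 on the log2 scale (adjusted p = 0.900), with the interaction at -2.97 ± 0.64 (adjusted p = 0.00122).

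Serpina3i (mm9 chr12:105501332-105507575), a low-count gene, was likewise highest in cWT_SOD1, with the other groups overlapping. Its counts were 2, 10, 2 and 18 in cWT and 47, 104, 212 and 133 in cWT_SOD1. They were 5, 4, 18 and 25 in cKO and 22, 6, 6 and 3 in cKO_SOD1. Again the cWT_SOD1 animals lay above all others. The transgene effect was 16.6-fold in cWT (log2 4.05 ± 0.62, adjusted p = 1.64e-05), and -0.49 ± 0.79 on the log2 scale in cKO (adjusted p = 0.774). With the transgene Serpina3i was 15.1-fold lower in cKO (adjusted p = 2.65e-05), and its interaction was -4.54 ± 1.04 (adjusted p = 0.00183).

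Serpina3h (mm9 chr12:105486106-105492615) had the same signs in cWT, but its rise rested on 2 animals. Its counts were 1, 38, 1 and 73 in cWT, and 23, 53, 832 and 554 in cWT_SOD1. They were 44, 31, 77 and 111 in cKO, and 81, 2, 6 and 8 in cKO_SOD1. Replicates 3 and 4 of cWT_SOD1 were far above every other library, whereas replicates 1 and 2 lay within the range of the controls. Over all libraries the transgene effect in cWT was 14.1-fold (log2 3.82 ± 1.05, adjusted p = 0.00393), the cKO effect with the transgene 17.1-fold lower (adjusted p = 0.00340) and the interaction -5.23 ± 1.59 (adjusted p = 0.0128). Without replicates 3 and 4 of cWT_SOD1, an alternative added after the values were seen, these became 0.51 (adjusted p = 0.724), -0.77 (adjusted p = 0.619) and -1.90 (adjusted p = 0.333) on the log2 scale. Serpina3i kept its calls without those animals.

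**Figure D2:**
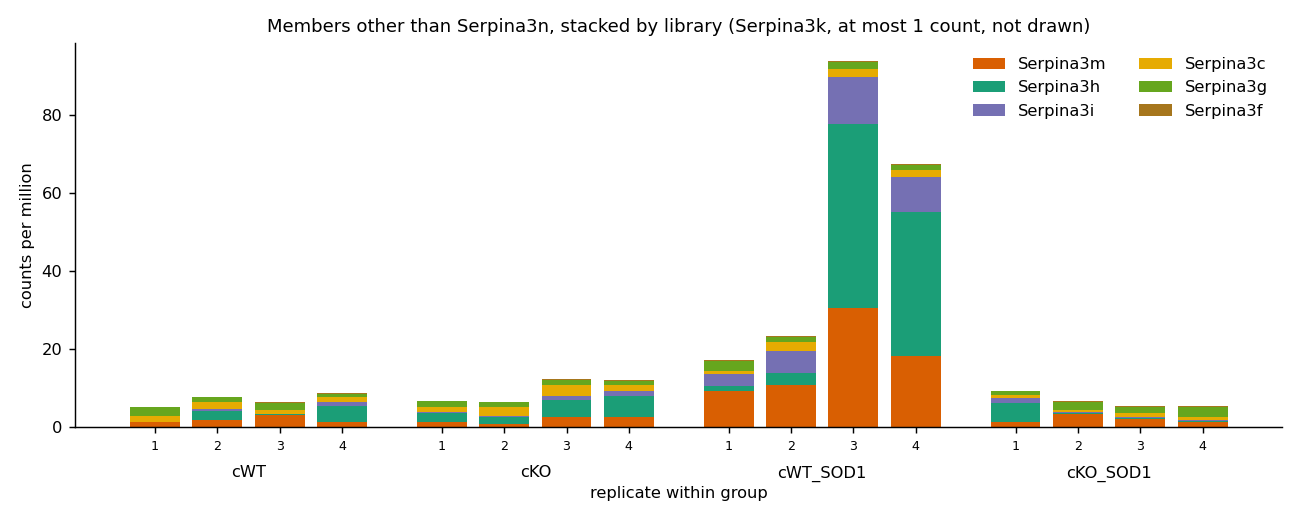
Summed CPM (vertical, linear scale from 0) of the members other than Serpina3n in each of the 16 libraries, stacked by gene. The sum runs from 17.2 to 93.7 in cWT_SOD1, with Serpina3h the tallest segment in replicates 3 and 4 and Serpina3m in replicates 1 and 2.

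Serpina3c (mm9 chr12:105385117-105392082) fell with the transgene in cKO animals, the one member whose fall passed the test there. It read 1.38, 2.33, 2.83 and 1.76 CPM in cKO, and 0.878, 0.628, 0.885 and 0.895 in cKO_SOD1. In cWT it read 1.33, 1.77, 0.889 and 1.38, and in cWT_SOD1 0.861, 2.12, 1.98 and 1.92. The cKO_SOD1 animals all stood below the cKO animals, whereas the 2 cWT groups overlapped. In cKO the gene fell 2.501-fold (log2 -1.32 ± 0.29, adjusted p = 0.00816), and the effect in cWT was 0.36 ± 0.28 on the log2 scale (adjusted p = 0.268). The interaction was -1.69 ± 0.41 (adjusted p = 0.00269). With the transgene Serpina3c was 2.09-fold lower in cKO (adjusted p = 0.00575), a difference whose adjusted p became 0.0695 without replicates 3 and 4 of cWT_SOD1. The cKO effect without the transgene was 0.62 ± 0.27 (unadjusted p = 0.0356, adjusted p = 0.9995), so the cKO level from which it fell was itself above the cWT mean. Each library held between 12 and 51 counts of this gene.

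Serpina3g, the lysosomal cathepsin inhibitor Spi2A, passed the test in none of the 5 comparisons. It read 2.36, 1.37, 1.94 and 0.609 CPM in cWT, and 2.46, 1.40, 1.87 and 1.33 in cWT_SOD1. In cKO it read 1.38, 1.43, 1.44 and 0.926, and in cKO_SOD1 0.937, 1.99, 1.72 and 2.49. All 4 groups overlapped. Its log2 effects were 0.16 ± 0.34 in cWT (adjusted p = 0.695) and 0.48 ± 0.34 in cKO (adjusted p = 0.444) for the transgene, and 0.03 ± 0.33 for cKO with the transgene. The last was -0.46 on log2 of the deposited FPKM plus 0.1 (limma, adjusted p = 0.231), so the 2 quantifications gave it different signs, and neither value passed.

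The 2 members below the filter left little to compare. Serpina3f had 8 counts over the 4 cWT libraries, 10 in cKO, 18 in cWT_SOD1 and 10 in cKO_SOD1. Every cWT_SOD1 animal had 3 to 6 counts, and the other 12 libraries ran from 0 (replicate 2 of cWT and of cKO) to 5 (replicate 4 of cWT and of cKO_SOD1). In FPKM the means were 0.101 ± 0.122 (SD, n = 4) in cWT, 0.147 ± 0.061 in cKO, 0.502 ± 0.314 in cWT_SOD1 and 0.102 ± 0.041 in cKO_SOD1. Exact permutation tests of log2 CPM, 2-sided, gave p = 0.143 for the transgene effect in cWT, 0.571 for that in cKO, and 0.971 and 0.314 for the effects of cKO without the transgene and with it, where 0.0286 is the smallest p the design allows. Serpina3k had 2 counts in all, 1 each in replicates 2 and 4 of cWT_SOD1. Its 0 counts over the 4 cWT libraries allow up to 0.0410 CPM (3 counts over the group, counting error only), so a low level was not detectable at this depth.

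Counted over the family, 4 of the 6 tested members (h, i, m and n) were higher with the transgene in cWT and 0 lower, where 66.3% of all genes tested passed (33.2% higher, 33.1% lower). Their median log2 fold change was 3.47, beside 0.01 over all genes, with the 2 untested members outside both counts. In cKO, Serpina3n was higher and Serpina3c lower, where 7.28% of genes passed (4.8% higher, 2.48% lower). No member passed for cKO without the transgene, where 4 genes in all (0.0259%; 0.00648% higher, 0.0194% lower) passed. There 543 genes had an unadjusted p under the same threshold, Serpina3c among them, and DESeq2 called 17, with 0 members among those. With the transgene 5 members (c, h, i, m and n) were lower in cKO, where 58.2% of genes passed (29.1% lower). The interaction passed, below 0, for the same 5 (45% of genes passed, 21.8% below 0). The shares of all genes called were high in 3 of these comparisons, against which the members' counts are to be read. The cWT_SOD1 libraries enter 3 of the comparisons and their values are not independent.

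**Figure D3:**
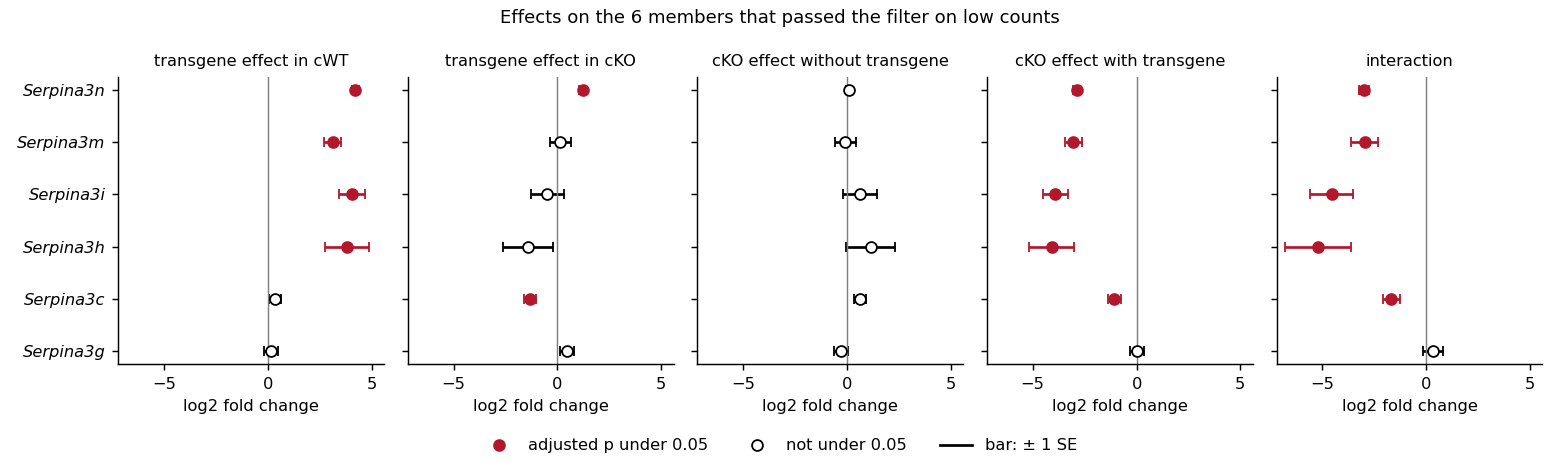
Log2 fold changes (horizontal) with ± 1 SE for the 6 members that passed the filter, in each of the 5 comparisons; filled red points passed at an adjusted p under 0.05. Serpina3n has the narrowest bars and Serpina3h the widest, and Serpina3g is open in every panel.

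Sums over members were also highest in cWT_SOD1. If each shared read was counted once, the sum of all 8 does not depend on how reads were divided among them. If shared reads were dropped or counted more than once, it does, and their handling is not given in the sources used here. The sum also depends on reads shared with other genes of the cluster: Serpina3n shared 2.68% of its 50-base windows with the pseudogene Serpina3e-ps. The 8 members together came to 109.8 CPM ± 7.63 (SD, n = 4) in cWT, 120.3 ± 14.2 in cKO, 1960.1 ± 568 in cWT_SOD1 and 265 ± 27.2 in cKO_SOD1. The ratio of cWT_SOD1 to cWT was 17.9. Serpina3n made up 89.5% to 99.1% of the sum in single libraries. Without Serpina3n the sum was 7.03 ± 1.54 in cWT, 9.46 ± 3.17 in cKO, 50.5 ± 36.5 in cWT_SOD1 and 6.70 ± 1.84 in cKO_SOD1. That smaller sum in cWT_SOD1 was 17.2, 23.5, 93.7 and 67.4 by replicate, all above the 12 libraries of the other groups, at a ratio of 7.17 to cWT. The lowest of the 3 other groups was cWT in the sum of all 8 and cKO_SOD1 in the sum without Serpina3n. The smaller sum does depend on how reads shared with Serpina3n were divided: 2.91% of the 50-base windows of Serpina3g, 1.16% of Serpina3c, 1.12% of Serpina3m and 0.955% of Serpina3f were identical in Serpina3n. Serpina3h, Serpina3i and Serpina3k shared 0 such windows with it. The part of such reads in the smaller sum was not tested.

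Animals of one group differed far more in some members than in others. On the log2 scale the SD within groups (12 residual degrees of freedom) was 0.25 for Serpina3n, 0.42 for Serpina3c, 0.54 for Serpina3g, 0.67 for Serpina3m, 1.05 for Serpina3i and 2.05 for Serpina3h, beside a median of 0.13 over all tested genes. Just 6 of the 15426 genes tested varied more within groups than Serpina3h. Its highest and lowest cWT animals differed 79.0-fold, and those of cKO_SOD1 45.3-fold. The lowest animals held 1 count (cWT) and 2 counts (cKO_SOD1), so the size of both ratios is uncertain.

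The swings of Serpina3h within groups ran together with those of other genes of the same stretch of chromosome 12. Of all tested genes, the 3 whose deviations from the group mean correlated most with those of Serpina3h were Serpina1b (r = 0.93), AK010878 (r = 0.90) and Serpina3i (r = 0.88), over 16 libraries. Without the 2 libraries farthest from the median these were 0.89, 0.86 and 0.81. All 3 lie within 2 Mb of it, a window that holds 37 (0.24%) of the genes tested. Serpina1b, a gene for the elastase inhibitor alpha-1-antitrypsin, had counts of 1, 21, 0 and 26 in cWT, and 0, 0, 8 and 9 in cWT_SOD1. Its counts were 8, 5, 2 and 20 in cKO, and 18, 0, 0 and 1 in cKO_SOD1. The animals with the most Serpina3h in cWT (replicates 2 and 4), cWT_SOD1 (3 and 4) and cKO_SOD1 (1) were also those with the most Serpina1b in their group. In cKO replicate 4 was highest for both, but replicate 3, next in Serpina3h with 77 counts, had the fewest of Serpina1b (2). AK010878 read 5.43, 9.36, 5.17 and 14.5 CPM in cWT, and 4.31, 4.81, 5.95 and 9.02 in cWT_SOD1. It read 9.43, 4.82, 5.82 and 5.67 in cKO_SOD1, again highest in replicate 1, and 9.82, 10.9, 9.92 and 12.6 in cKO, and passed the test in none of the 5 comparisons. Serpina3g swung the other way, with r = -0.74 to Serpina3h and -0.81 to Serpina3i. None of Serpina3c, Serpina3m and Serpina3n had a gene within 2 Mb among the 20 most correlated with it. These correlations are descriptions over libraries that share an annotation and a depth, and their part in the group differences of Serpina3h and Serpina3i was not tested.

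**Figure D4:**
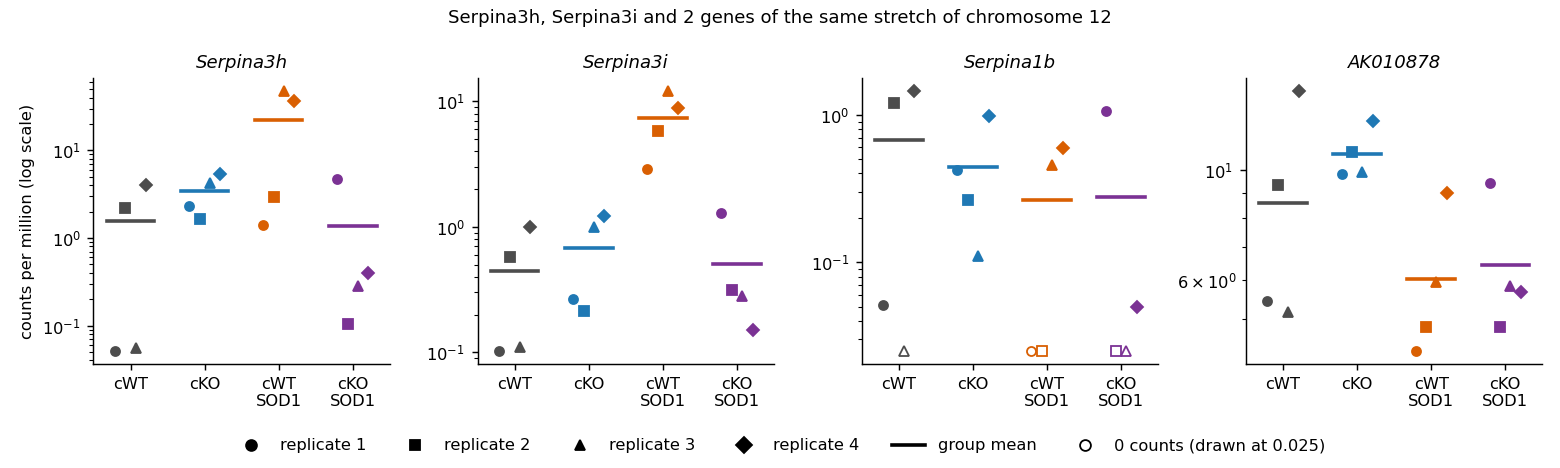
CPM (vertical, log scale) of Serpina3h, Serpina3i, Serpina1b and AK010878 by group, with group means as bars, shapes for replicate numbers and open symbols for 0 counts. Replicates 2 and 4 of cWT and replicate 1 of cKO_SOD1 are the highest of their groups in all 4 genes.

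The 2 deposited quantifications, counts and FPKM, can be set against each other as a gauge of how reads of like genes were assigned. For Serpina3n the ratio of FPKM to CPM varied 1.07-fold between its extremes over the 16 libraries. It varied 1.38-fold for Serpina3m, 2.01-fold for Serpina3c and 2.71-fold for Serpina3g. For the last pair the maximum was replicate 4 of cWT_SOD1, at 1.81 and 2.29 times the median library, and for Serpina3g replicate 3 of that group came next at 1.53. For Serpina3c replicate 1 of that group came next at 1.23, ahead of replicate 3 at 1.204. Replicates 3 and 4 are the animals with the highest Serpina3h, and replicate 1 has the lowest of its group (1.41 CPM). Ratios were taken only from libraries with at least 5 counts, which left 4 for Serpina3f. Below that minimum, replicates 3 and 4 of cWT_SOD1 had 0.756 and 0.792 FPKM of Serpina3f on 4 and 3 counts. Replicates 1 and 2 of that group had 0.232 and 0.228 FPKM on 5 and 6 counts. Which of the 2 quantifications is nearer the truth for Serpina3c, Serpina3f and Serpina3g in cWT_SOD1 was not tested.

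**Figure D5:**
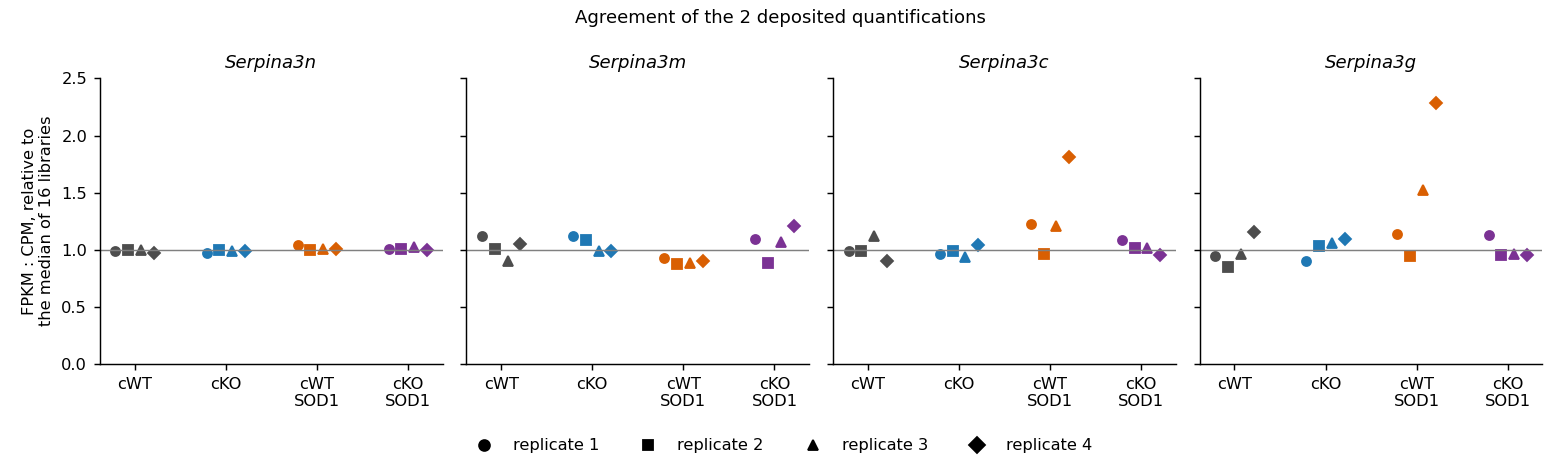
Ratio of FPKM to CPM in each library, relative to the median of the 16 libraries (vertical), for 4 members by group. Serpina3n stays between 0.973 and 1.04, while replicate 4 of cWT_SOD1 reaches 1.81 for Serpina3c and 2.29 for Serpina3g.

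Serpina3c and Serpina3n, whose transgene effects differ in sign in cKO, have nearly the same upstream sequence. RefSeq start sites (GRCm38.p6) were matched for 5 of the 8 members (c, f, g, i and n). The 250 bases before the start sites of Serpina3n (chr12:104406458-104406707, plus strand) and Serpina3c (chr12:104153873-104154122, minus strand) were 92.7% identical over 247 aligned bases, where the other pairs of members were at most 83.2% identical. They are printed 5′ to 3′, with capitals for bases that differ from or have no partner in the other.
Serpina3n: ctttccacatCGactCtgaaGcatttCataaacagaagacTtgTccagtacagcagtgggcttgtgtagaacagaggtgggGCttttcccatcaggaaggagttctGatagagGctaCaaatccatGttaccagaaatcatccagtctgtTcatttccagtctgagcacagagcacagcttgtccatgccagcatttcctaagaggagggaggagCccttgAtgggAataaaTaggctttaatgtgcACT
Serpina3c: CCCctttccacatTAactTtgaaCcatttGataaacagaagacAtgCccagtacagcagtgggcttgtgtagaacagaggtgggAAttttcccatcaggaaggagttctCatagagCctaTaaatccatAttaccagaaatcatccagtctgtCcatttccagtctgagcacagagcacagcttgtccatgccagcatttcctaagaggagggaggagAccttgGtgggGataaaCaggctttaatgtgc

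A motif search on both strands of these 250 bases used the letters of 4 known elements. GGGNNTTTCC, a form bound by NF-kappa-B, is in 1.41% of 32851 promoters of the same length. It was found in Serpina3n (first base at -171 from the start site), Serpina3i (-154) and Serpina3g (-85). In Serpina3n, 2 of the bases in capitals lie in it, and Serpina3c has no exact match to these letters. The aligned bases of Serpina3c read ggAAttttcc. Other forms of the element were not searched, so the search does not show that Serpina3c lacks a site for NF-kappa-B. TTCNNNGAA, the form bound by STAT factors, is in 7.02% of promoters and was found in Serpina3f (-121), Serpina3g (-33) and Serpina3i (-102). TTGCNNAA, read by C/EBP factors, is in 9.56% and was found in Serpina3f, and TTTCNNTTTC, an interferon element, is in 2.98% and was found in no member. No 2 of these matches overlapped. A match is a description of the letters, and the RNA data do not measure binding.

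Genes whose pattern over the 16 libraries was most like that of each member were named by the smallest root mean square difference of centred log2 CPM. For Serpina3n these were C1qa (0.21), Cd84 (0.22), Cd48 (0.23), Slc11a1 (0.26) and Trem2 (0.27). Trem2 is also one of the microglia markers summed above. C1qa had transgene effects of 4.08 in cWT and 1.31 in cKO on the log2 scale, beside 4.22 and 1.22 for Serpina3n. The nearest to Serpina3m were Fcrl1 (0.54), Itga2 (0.55) and Hmox1 (0.57), and those nearest to Serpina3i were Htr2b (0.79), Lcn2 (0.85) and Lox (0.88). Serpina3h had no near neighbour, with Serpina3i (1.32) and Lcn2 (1.71) the closest. For Serpina3c the closest were Rab39 (0.37), Blvrb (0.38) and Dmp1 (0.40), and for Serpina3g 1700012D14Rik (0.26), 9030617O03Rik (0.31) and Olfr856-ps1 (0.34).

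The pathway known to induce the family was followed in a list of 27 genes of cytokine signalling (ligands, receptors, kinases, transcription factors and inhibitors), of which 23 were tested. The counts of this list and of those that follow are to be read beside the shares of all genes tested. With the transgene 33.2% of these were higher and 33.1% lower in cWT, and 4.8% higher and 2.48% lower in cKO. Between cKO_SOD1 and cWT_SOD1 29.1% were higher and 29.1% lower in cKO_SOD1. For the interaction 23.2% lay above 0 and 21.8% below. In the list 18 of the 23 were higher and 3 lower with the transgene in cWT. Their median log2 fold change was 0.83 beside 0.01 over all genes. Osmr, the oncostatin M receptor, rose 13.9-fold (log2 3.80 ± 0.14, adjusted p = 2.09e-12), Cebpd, a transcription factor of the acute phase, 10.3-fold (adjusted p = 1.02e-11), and Stat3 1.77-fold (adjusted p = 5.71e-11). The 3 lower genes were the kinase Jak1 (log2 -0.44, adjusted p = 2.03e-08) and the receptor genes Lifr (-0.42, adjusted p = 6.75e-05) and Cntfr (-0.42, adjusted p = 0.000309). The ligand Il6 was not tested, with 3 counts over the cWT libraries, 8 in cKO, 4 in cWT_SOD1 and 1 in cKO_SOD1. The ligands Osm (oncostatin M) and Lif rose 13.4-fold and 8.30-fold in cWT (adjusted p = 3.50e-06 and 3.48e-06). Their counts were low, at 10 and 24 over the cWT libraries and 129 and 187 in cWT_SOD1. With the transgene both were lower in cKO (log2 -2.03 and -1.35, adjusted p = 0.000250 and 0.00195). The interaction passed for Lif (adjusted p = 0.0278) but not for Osm (adjusted p = 0.894). In cKO 9 of the 23 were higher and 2 lower. There Osmr rose 2.51-fold and Stat3 1.18-fold (adjusted p = 1.57e-05 and 0.00183). With the transgene 17 of the 23 were lower in cKO and 1 higher, and for the interaction 16 lay below 0 and 2 above. Without the transgene none of the 23 passed. The ratio of the 2 transgene effects was 5.53 for Osmr and 1.51 for Stat3, beside 7.97 for Serpina3n.

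Other acute-phase and reactive genes moved in the same direction as Serpina3n. Of 15 listed, 8 were tested and all 8 were higher with the transgene in cWT (median log2 3.61), 5 in cKO (median 1.19), and all 8 lower in cKO with the transgene and below 0 for the interaction. A2m, the protease inhibitor alpha-2-macroglobulin, rose 11.1-fold in cWT and 2.60-fold in cKO, and the complement gene C4b 8.41-fold and 3.05-fold. Lcn2, an acute-phase lipocalin, rose 18.5-fold in cWT (adjusted p = 3.23e-06), with an effect of -0.08 ± 0.60 on the log2 scale in cKO (adjusted p = 0.961). Of 17 interferon response genes 16 were tested, and 15 were higher in cWT and 10 in cKO, with 0 lower. Irf8 rose 11.8-fold in cWT and 2.61-fold in cKO, and 13 of the list were lower in cKO with the transgene and 11 below 0 for the interaction.

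Proteases that the family can inhibit, or that other serpins inhibit, were followed in a list of 20, of which 11 were tested. In cWT 8 were higher and 2 lower, in cKO 7 higher and 1 lower, and with the transgene 8 were lower in cKO and 1 higher. Ctsl and Ctsb, the cathepsins that Spi2A inhibits, rose 5.61-fold and 4.17-fold in cWT (adjusted p = 1.93e-11 and 6.73e-11) and 1.45-fold and 1.33-fold in cKO (adjusted p = 0.00563 and 0.0191), while Serpina3g passed in neither. Granzyme B (Gzmb) and leukocyte elastase (Elane), targets of Serpina3n, had at most 3 counts over the 4 libraries of any group. The one protease that differed between cKO and cWT without the transgene was Mmp9, 1.76-fold lower (adjusted p = 0.000177). Mmp9 is also a marker of fast motor neurons and fell 5.07-fold with the transgene in cWT.

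Serpins outside the cluster did not share 1 direction. Of 14 tested serpins of other clades, 10 were higher and 3 lower with the transgene in cWT, 1 higher and 1 lower in cKO, and 10 lower and 2 higher in cKO with the transgene. For the interaction 9 lay below 0 and 2 above, and none passed for cKO without the transgene. Serping1 (the C1 inhibitor) rose 6.94-fold in cWT (adjusted p = 1.49e-08). In the same clade as the cluster 18 other genes were listed and 2 were tested: Agt (angiotensinogen) rose 3.19-fold in cWT and 1.49-fold in cKO, whereas Serpina1b passed in no comparison. The hepatocyte markers that would accompany liver RNA summed to at most 3.002 CPM over 6 genes in any library, with Ahsg at 0 counts in cWT and Alb, Fga and Tat at 0 in cKO. That sum ranged from 0.870 to 1.14 in cWT and 1.29 to 3.002 in cWT_SOD1. T and NK cell markers summed to between 0.778 and 1.69 CPM in cWT and between 3.63 and 4.70 in cWT_SOD1, and to between 0.937 and 1.89 in cKO_SOD1.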

How the data were processed

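Lumbar spinal cord RNA of 16 mice was sequenced. The submitters' processing notes name bcl2fastq 1.8.4, TopHat2 2.0.4, Cufflinks 2.0.2 and mm9, without a role for each; the counting tool is not given in the sources used here. The authors deposited raw counts per gene symbol and FPKM values, identical in the joint and the per-library tables. The counts were tested with edgeR 4.0.16 (quasi-likelihood F-test, TMM, filterByExpr, 1 coefficient per group, all 16 libraries), with Benjamini-Hochberg adjustment over 15426 genes and a threshold of 0.05, checked on simulated counts. Library pairs within groups differed beyond sampling noise (mean chi-square per gene 2.88 to 40.8). Ranks of levels used FPKM; log2 CPM had a prior count of 2. The members and gene lists were chosen with earlier results of these data known. Members were all named; list genes were named by smallest p or as known partners, and likeness by the nearest 5 (Serpina3n) or 3 genes. Alternatives were RLE and upper-quartile factors, no filter, DESeq2 1.42.0, limma 3.58.1 (voom; FPKM with pseudocounts 0.1 and 1), fits of the groups compared alone, replicate and sex terms, and each library left out. Sequence alignment used Biopython 1.88. The sex term used sex inferred from Xist counts (high Xist taken as female), which gave 2 females and 2 males in each group.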

Additional observations from a re-analysis of the deposited data

Results flagged for a closer look

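In 29 groups of 4 libraries with any spread, 5 held a library whose gap to its nearest neighbour exceeded the critical share of the group's range in Dixon's test at 95%; chance marks about 5% of groups. The libraries were replicate 1 of cKO_SOD1 for Serpina3h (4.74 CPM) and for Serpina3i (1.29 CPM), replicate 1 of cWT_SOD1 for Serpina3c (0.861 CPM), replicate 2 of cKO_SOD1 for Serpina3c (0.628 CPM) and replicate 4 of cKO for Serpina3g (0.926 CPM). The same cKO_SOD1 animal was thus the high one for both Serpina3h and Serpina3i.

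The transgene effect differed between cKO and cWT, by the interaction term, for 5 of the 6 tested members. Of all genes tested, 45% passed for the interaction (21.8% below 0). The log2 differences were -1.69 for Serpina3c, -5.23 for Serpina3h, -4.54 for Serpina3i, -2.97 for Serpina3m and -2.995 for Serpina3n. Only Serpina3c combined this with a fall in cKO that passed the test, and the value for Serpina3h was lost without replicates 3 and 4 of cWT_SOD1.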

How the results depend on the processing

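Serpina3n, Serpina3m and Serpina3i kept direction and call, in each comparison where they passed, under every alternative run, leave-one-out included. Across members, 343 of 357 values under alternatives other than leaving out 1 library, and 495 of 512 with 1 left out, kept direction and side of the threshold. Without replicates 3 and 4 of cWT_SOD1, added after the data were seen, Serpina3h went to 0.51 (transgene in cWT), -0.77 (cKO with transgene) and -1.90 (interaction), Serpina3c to -0.88 and Serpina3g to -0.10 (both cKO with transgene); none of these passed. Serpina3g (cKO with transgene) was -0.0017 with voom and -0.46, -0.27 and -0.46 in FPKM with pseudocount 0.1, pseudocount 1 and no filter, where its interaction was -0.40, -0.22 and -0.40; its transgene effect in cWT was 0.40 (adjusted p = 0.0434) with pseudocount 1. Serpina3f turned to -0.025 (transgene in cKO) with no filter. The cause was not tested.

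Genes called for the transgene in cKO numbered 2264 with voom and 2480 with the compared groups alone, beside 1123. For cKO without transgene they numbered 17 with DESeq2, 10 with voom and 9 with the compared groups alone, beside 4. With CPM in place of FPKM, 25 of 32 ranks of members stayed.

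Leaving out 1 library gave 685 (without replicate 2 of cKO) to 1643 (without replicate 1 of cWT_SOD1) genes for the transgene in cKO and 2 to 9 for cKO without transgene. Serpina3c (transgene in cWT) ranged from 0.21 to 0.59, passing without replicate 1 of cWT_SOD1 (adjusted p = 0.0467). Serpina3g ranged from -0.11 to 0.43 (transgene in cWT) and -0.17 to 0.22 (cKO with transgene). Serpina3m ranged from -0.20 to 0.36 (transgene in cKO) and -0.28 to 0.28 (cKO without transgene). Serpina3f ranged from 0.47 to 1.08 (transgene in cWT, exact p = 0.0286 without replicate 4 of cWT) and -0.26 to 0.37 (cKO without transgene).

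With a replicate block no member changed its call and 1158 genes were called for the transgene in cKO; Serpina3n was 4.18 in cWT and -2.96 for the interaction. Same-numbered libraries correlated at -0.25 to 0.31 (24 pairs, 11 above 0.1, median 0.026), beside a median of 0.0022 over the 72 other pairs. Pairs of replicate 4 ranged from 0.02 to 0.31. Of the 16 libraries, 7 correlated best with one of their own number. These values do not settle whether the numbers pair the animals. Depth limits Serpina3f and Serpina3k, and at 1 to 111 counts Serpina3h and Serpina3i outside cWT_SOD1.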
